A study of Mus musculus with 12 samples.

Results

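Normal epidermis of FVB/NJ mice was compared 24 h after topical application of camphor white oil (CWO) or of vehicle. The comparison holds 6 of the 12 libraries of the study, 3 from epidermis given CWO and 3 from epidermis given vehicle, chosen by their titles. The other 6 libraries are chemically induced papillomas and enter only an alternative fit. Shaved mice received 400 µL of CWO at 20% or of acetone, the vehicle, and epidermis was lifted off with 3.8% ammonium thiocyanate over 40 min. The labels name no other agent or allele for these mice. Samples were picked for polyA RNA sequencing by RNA integrity, 3 per treatment. Whether replicate numbers are related between treatments is not stated, nor that the libraries of a group are separate animals, so the p-values below measure only the spread between these samples, which may be technical.

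Camphor white oil is a distillate of the camphor tree rich in monoterpenes, small lipophilic molecules that pass into the outer skin. Epidermis renews itself from a basal layer of dividing keratinocytes, whose daughters stop dividing, build the cornified envelope and fill the spaces between dead cells with ceramides, cholesterol and fatty acids. After chemical or mechanical disturbance of this barrier keratinocytes are known to divide more, to make stefins, small proline-rich proteins, antimicrobial peptides and cytokines, and to draw on glycolysis, much of which is under hypoxia-inducible factors. Langerhans cells and resident T cells share this layer with the keratinocytes.

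Of 12289 genes tested by limma, 245 were called at a Benjamini-Hochberg adjusted p under 0.05 (1.99% of those tested), 223 higher with CWO (1.81%) and 22 lower (0.179%). Levels are FPKM, fragments per kilobase of transcript scaled to library depth. Each log2 fold change was taken after adding 1 to FPKM, so change in genes of low level is understated. At an unadjusted p under 0.05 there were 1809 genes. Most of the called changes were moderate: 36 rises were under 0.75 on the log2 scale, 48 lay between 0.75 and 1, 91 between 1 and 1.5, 27 between 1.5 and 2, and 21 above 2. In every called gene the 3 CWO libraries lay wholly on one side of the 3 vehicle libraries. Among all tested genes 12.1% had every CWO library above every vehicle library and 6.66% had every one below. The authors' deposited table for epidermis holds 176 genes, none with an adjusted p above 0.00544, and 158 of the genes called here are in it. The other 87 called here, 78 of them higher, were smaller changes, with a median absolute log2 fold change of 0.87 against 1.23 for those in both.

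Skeletal muscle RNA was uneven among the vehicle libraries. The 26 muscle genes listed, all above the filter, made up 2.28%, 3.22% and 0.703% of the summed FPKM in vehicle libraries 1, 2 and 3, and 0.702%, 0.548% and 0.722% in CWO libraries 1, 2 and 3. Acta1, skeletal actin, read 2786, 4936 and 887 FPKM with vehicle and 1063, 715 and 781 with CWO, so that vehicle library 3 sat among the CWO libraries and only vehicle libraries 1 and 2 stood apart. The median log2 fold change of the muscle list was -1.26, and against vehicle library 3 alone it was -0.02. None of its genes was called with all 6 libraries, while all 26 were called lower without vehicle library 3 and 17 with limma arrayWeights. With all libraries the genes named were Ckm (creatine kinase, log2 fold change -1.48, limma adjusted p = 0.199), Myl1 and Actn3 of the sarcomere (-1.5, adjusted p = 0.161, and -1.43, adjusted p = 0.191), and Tnnc2 and Tnni2 (-1.24 and -1.22; 0.07 and 0.11 against vehicle library 3). In bulk RNA, fewer cells of a type and less RNA per cell cannot be told apart. By share of summed FPKM, the muscle list would lower other genes by 0.03, 0.05 and 0.01 (log2) in vehicle libraries 1 to 3. In each CWO library the figure was about 0.01. FPKM is scaled to fragments rather than to summed FPKM, and the list is only part of muscle RNA. The lowering by all muscle RNA was therefore not measured.

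Each called gene was therefore also read against vehicle library 3, the deepest library at 24.6 M (mega) fragments, beside 13 and 11.1 M for vehicle libraries 1 and 2 and 17.9 to 18.3 M for the CWO libraries. In all 245 called genes vehicle library 3 lay outside the range of the CWO libraries on the same side as the other vehicle libraries. This follows from the groups not overlapping in any called gene, so it is no separate check. The calls themselves were made with the values of vehicle library 3 included. Over all tested genes, vehicle library 3 lay below every CWO library in 19.5% and above every one in 30.8%. The median log2 fold change of the 223 called higher was 1.12 against all vehicle libraries, 0.97 against vehicle library 3 alone and 0.95 with each library's mean over the muscle list as a covariate. The smallest of those rises were 0.39 in both alternatives. For the 22 called lower the medians were -1.18, -0.95 and -0.95, against 0.02, -0.06 and -0.06 over all tested genes. The covariate left 16 calls, 15 of them among the 245. With vehicle library 3 as the lone control, its spread taken from the CWO libraries, there were 12 calls, 11 of them among the 245.

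**Figure D1:**
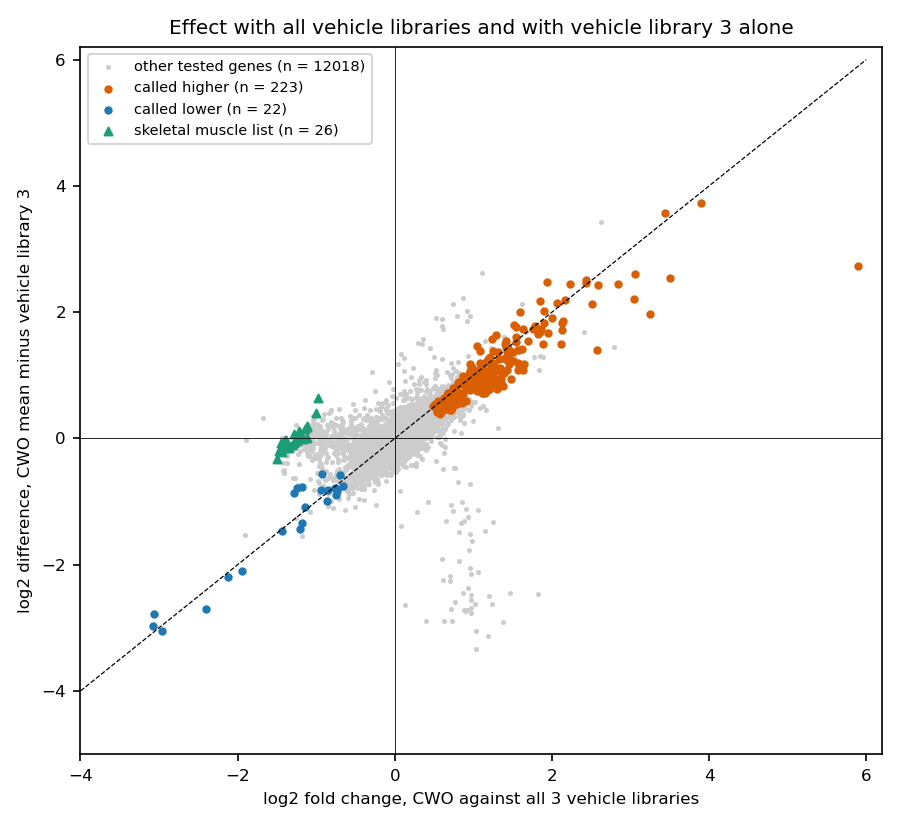
Log2 fold change of CWO against all 3 vehicle libraries (horizontal) and against vehicle library 3 alone (vertical) for each of the 12289 tested genes; the dashed line marks equal values. The 223 genes called higher and 22 called lower keep their sign on both axes, as genes whose groups do not overlap must. The 26 muscle genes spread around 0 on the vertical axis.

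The count also moved with single libraries. It was 83 without vehicle library 1, 104 without vehicle library 2, 64 without CWO library 1 and 94 without CWO library 2. Without vehicle library 3 it was 684 (371 higher, 313 lower), and without CWO library 3 it was 328. In 58 genes the call held with each of the 6 libraries left out in turn. CWO library 3 was the lowest of the CWO libraries in 73.1% of the 223 risers, beside 39.8% of all tested genes, and vehicle library 3 was the highest vehicle library in 65.5% of them, beside 55.8%. Depth, muscle share and these orders vary between the same libraries, and their part in the size of the rises was not tested.

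Genes of the hypoxia response rose in about equal measure against all vehicle libraries and against vehicle library 3. Of 19 tested genes 10 rose, none fell and 9 did not pass, a share of 52.6% beside the background of 1.81%. The median log2 fold change was 0.91 in both readings. Lists were chosen with earlier results of these data known, so the shares in this and later lists are descriptions and not tests. Higd1a, a mitochondrial protein of hypoxic cells (mm9 chromosome 9, 121757678 to 121767118), read 43.2, 42.5 and 40.5 FPKM with vehicle and 92.2, 102 and 91.7 with CWO. The groups were far apart for their spread, at 42.1 ± 1.39 and 95.2 ± 5.56 FPKM (SD, n = 3), a log2 fold change of 1.16 (SE 0.097, limma adjusted p = 0.00269), and vehicle library 3 was the lowest of all. Bnip3, which marks mitochondria for removal, read 44.0, 39.2 and 45.0 FPKM with vehicle and 105, 85.2 and 125 with CWO (adjusted p = 0.00739, log2 fold change 1.26).

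Oxygen sensing itself was represented. Egln3, a prolyl hydroxylase that marks hypoxia-inducible factors for destruction, read 54.2, 60.1 and 70.7 FPKM with vehicle and 234, 190 and 157 with CWO (log2 fold change 1.62, SE 0.164, limma adjusted p = 0.0045). Its relative Egln1 rose by 0.91 (adjusted p = 0.0111), a call lost without vehicle library 1. Ndrg1, a differentiation and stress gene, had nearly equal vehicle libraries at 79.8, 79.7 and 77 FPKM, and CWO libraries at 162, 139 and 143 (log2 fold change 0.90, SE 0.101, adjusted p = 0.00669). Ero1l, an oxidase of the endoplasmic reticulum, and Ankrd37 rose by 1.21 and 1.40. Car9, a carbonic anhydrase, and P4ha2, a collagen prolyl hydroxylase, rose by 1.40 and 1.09, but neither was called without vehicle library 1, vehicle library 2 or CWO library 1. Pdk1, a kinase that inhibits pyruvate dehydrogenase, had the smallest called rise in the list, 0.49 (limma adjusted p = 0.0484), and lost its call with any library left out. Hypoxia calls numbered 6 and 7 without vehicle libraries 1 and 2, 11 without vehicle library 3, and 7, 8 and 11 without CWO libraries 1, 2 and 3. With the muscle covariate 1 remained, Higd1a (log2 fold change 1.18, adjusted p = 0.0391). Vegfa, singled out after its values were seen, had 1.22 and did not pass (adjusted p = 0.0639).

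Glycolysis moved beside it. Of 20 genes of glycolysis and lactate handling 8 rose and 12 did not pass (40.0%; median log2 fold change 0.87, and 0.90 against vehicle library 3). Pgk1, the kinase that makes ATP from bisphosphoglycerate (mm9 chromosome X, 103382463 to 103399038), read 108, 125 and 91.2 FPKM with vehicle and 357, 305 and 282 with CWO. Its log2 fold change of 1.54 (SE 0.146, limma adjusted p = 0.00411) became 1.78 with the muscle covariate (adjusted p = 0.0168). Aldoc, the brain-type aldolase, read 24.5, 26.9 and 25.1 FPKM with vehicle and 62.9, 57.4 and 46.0 with CWO (adjusted p = 0.00784, log2 fold change 1.08). Pgam1, a mutase, rose by 1.22 and Pfkfb3, which makes the activator of phosphofructokinase, by 1.10, the latter not called without CWO library 1.

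The phosphofructokinases Pfkl and Pfkp and the lactate carriers Slc16a3 and Slc16a1 rose by 1.00, 0.99, 1.23 and 0.71. None of these 4 was called without vehicle library 1, CWO library 1 or CWO library 2. Ldha, lactate dehydrogenase, chosen after its values were seen, read 466, 671 and 366 FPKM with vehicle and 925, 888 and 746 with CWO. Vehicle library 2 was its highest vehicle library, and the gene did not pass (log2 fold change 0.80, limma adjusted p = 0.12, and 1.21 against vehicle library 3). The part of muscle RNA in its level was not tested. Glycolysis genes called higher numbered 4 and 7 without vehicle libraries 1 and 2, 10 without vehicle library 3 (where Pfkm, the muscle phosphofructokinase, was called lower), 3 and 4 without CWO libraries 1 and 2, and 10 without CWO library 3, and Pgk1 alone held with the covariate. Outside the lists, Fam162a, Ak4 and Hilpda, called genes with known ties to hypoxia, rose by 1.56, 1.25 and 0.97. They were picked from the called genes, so their rise is no separate check. Genes with such ties that were not called were not counted. Ndufa4l2, an inhibitor of mitochondrial complex I, rose from 416 ± 83.3 to 936 ± 191 FPKM (SD, n = 3; log2 fold change 1.17). The last was not called without vehicle library 1 or 2 or CWO library 1.

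**Figure D2:**
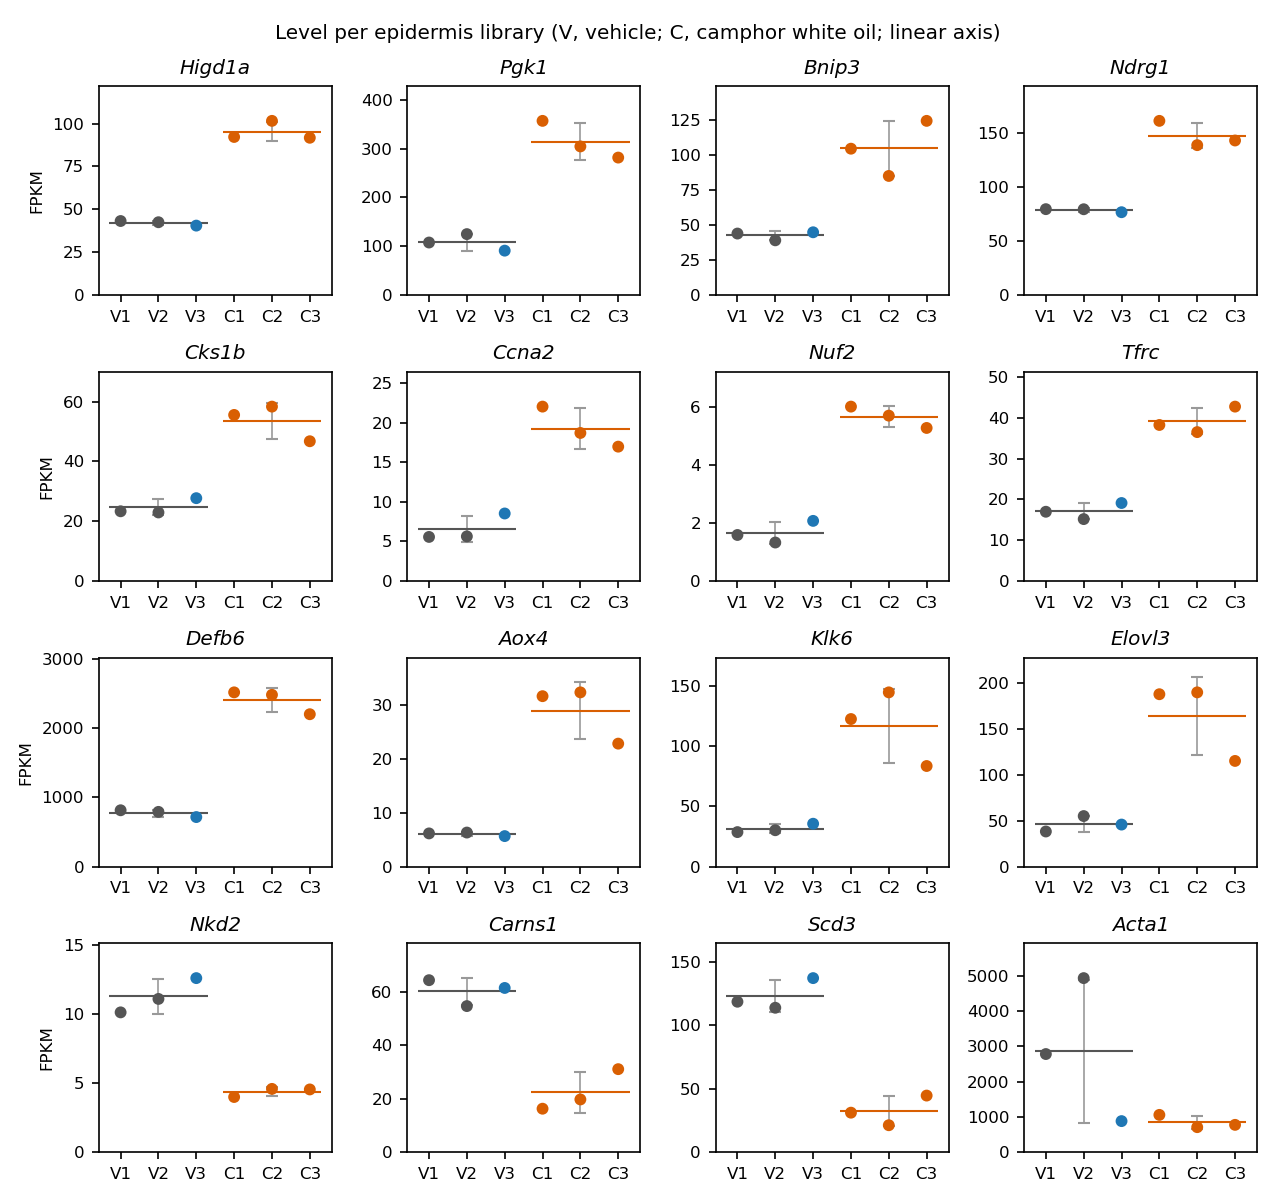
FPKM of 16 genes in each of the 6 epidermis libraries (V1 to V3 vehicle, C1 to C3 CWO), with the group mean as a line and the SD as a bar, on linear axes that start at 0. Vehicle library 3, in blue, sits with the other vehicle libraries in the first 15 panels and with the CWO libraries for Acta1.

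Promoter sequences of these genes are shown because members of both lists rose together. The windows are the 250 bases before the RefSeq start on GRCm38.p6, a later build than the mm9 of the expression files, and no position was converted between builds. RefSeq windows were matched by symbol for 17 of 19 hypoxia genes and all 20 glycolysis genes, called or not. The shares below therefore describe the lists and not the change with CWO. ACGTG, the core of the element that hypoxia-inducible factors bind, was searched on both strands and can overlap its own reverse complement in CACGTG. It was found in 56.5% of 23 hypoxia windows and 43.8% of 32 glycolysis windows, and in 21.3% of the 12397 windows of tested genes and 16.6% of all 32851 windows. Pgk1 (chrX:106186850-106187099, plus strand), Bnip3 (chr7:138909507-138909756, minus strand) and Fam162a (chr16:36071562-36071811, minus strand) are printed 5′ to 3′, with matches on either strand in capitals. They were chosen after their matches were seen, and Fam162a is in neither list. A match is a description of the letters only.
Pgk1: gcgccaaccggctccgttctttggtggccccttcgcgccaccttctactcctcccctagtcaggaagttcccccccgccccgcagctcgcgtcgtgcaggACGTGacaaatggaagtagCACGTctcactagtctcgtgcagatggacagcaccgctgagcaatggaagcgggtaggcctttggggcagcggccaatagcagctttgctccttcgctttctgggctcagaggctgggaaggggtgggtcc
Bnip3: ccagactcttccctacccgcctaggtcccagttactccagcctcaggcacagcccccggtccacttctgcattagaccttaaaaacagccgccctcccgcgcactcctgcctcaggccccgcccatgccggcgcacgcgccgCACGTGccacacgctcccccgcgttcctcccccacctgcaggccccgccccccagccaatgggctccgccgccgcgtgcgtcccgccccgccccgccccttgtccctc
Fam162a: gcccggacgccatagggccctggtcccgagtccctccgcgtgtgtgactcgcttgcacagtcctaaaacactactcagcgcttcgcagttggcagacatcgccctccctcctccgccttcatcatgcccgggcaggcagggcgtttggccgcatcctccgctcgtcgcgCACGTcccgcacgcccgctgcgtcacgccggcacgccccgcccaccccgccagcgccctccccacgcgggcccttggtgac

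Genes of cell division rose as the largest group. Of 30 genes of mitosis and cytokinesis 20 rose, none fell and 10 did not pass (66.7%). Every CWO library lay above every vehicle library in 29 of the 30, beside 12.1% of all tested genes. Ccna2, the cyclin of S phase and mitotic entry, read 5.57, 5.63 and 8.53 FPKM with vehicle and 22.1, 18.7 and 17.0 with CWO (log2 fold change 1.43, SE 0.177, limma adjusted p = 0.00784). Racgap1, which guides the cleavage furrow, read 5.88, 5.5 and 7.54 FPKM with vehicle and 17.3, 17.5 and 13.3 with CWO (adjusted p = 0.0093, log2 fold change 1.22). In both genes vehicle library 3 was the highest of the vehicle libraries, and the groups did not overlap.

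That order ran through the list. The list mean on the log2 scale was 2.16, 1.91 and 2.62 in vehicle libraries 1 to 3 and 3.61, 3.61 and 3.16 in CWO libraries 1 to 3, so vehicle library 3 and CWO library 3 were the nearest pair. The median log2 fold change was 1.28 against all vehicle libraries and 0.90 against vehicle library 3 alone. Vehicle library 3 was below every CWO library in 29 of 30 genes, beside 19.5% of all tested genes. Since the groups did not overlap in 29 genes, that count is no separate check. The kinesin, checkpoint and kinase genes carried like values: Cdk1 rose by 1.57, Cenpa, the centromeric histone, by 1.57, Top2a by 1.40, Cdc20 by 1.31 and Mki67 by 1.21. Against vehicle library 3 these were 1.11, 1.08, 1.03, 0.93 and 0.81. Ube2c, chosen after its values were seen, had the largest log2 fold change of the list at 1.83 and did not pass (adjusted p = 0.0558), with vehicle libraries at 12.7, 5.79 and 20.0 FPKM.

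Mitosis calls numbered 2 without vehicle library 1, 5 without vehicle library 2, 1 without CWO library 1 and 3 without CWO library 2, and none was called with the muscle covariate or with vehicle library 3 alone, where the medians were 0.87 and 0.90. Without vehicle library 3 there were 29, and without CWO library 3 there were 23. Cks1b, a subunit of cyclin-dependent kinases outside the list, and Nuf2, of the kinetochore, kept their calls with each library left out. Cks1b read 23.3, 22.9 and 27.7 FPKM with vehicle and 55.5, 58.3 and 46.7 with CWO (adjusted p = 0.00739, log2 fold change 1.09). Nuf2 read 1.58, 1.32 and 2.07 FPKM with vehicle and 6.00, 5.69 and 5.27 with CWO (adjusted p = 0.00669, log2 fold change 1.33). Tacc3, Esco2 and Syce2, smaller risers of the spindle, of cohesion and of meiotic chromosome structure, had 0.96, 0.95 and 0.83. Foxm1, a transcription factor of mitotic genes that was chosen after its values were seen, rose by 1.10 (adjusted p = 0.0462). None of these 4 held without vehicle library 1 or 2 or without CWO library 1 or 2.

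DNA replication shifted less. Of 32 genes 4 rose and 28 did not pass (12.5%, with a median of 0.52, and 0.44 against vehicle library 3). All 32 had a positive log2 fold change. In 27 every CWO library lay above every vehicle library, beside 12.1% of all tested genes. Mcm3, of the replicative helicase, read 11.7, 11.5 and 12.5 FPKM with vehicle and 25.0, 19.4 and 19.8 with CWO (log2 fold change 0.79, limma adjusted p = 0.0237). Uhrf1, which copies DNA methylation, Tk1, thymidine kinase, and Rrm1, a ribonucleotide reductase subunit, rose by 0.80, 1.04 and 0.64. None of the replication genes was called without vehicle library 1, vehicle library 2 or CWO library 1, 1 was without CWO library 2, and 9 were without vehicle library 3.

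Promoters of mitotic genes are shown for the same reason as above. CCAAT, the box bound by nuclear factor Y, and TTTGAA, the form of the cell cycle homology element searched here, were each looked for on both strands, and neither contains the other. RefSeq windows were matched for 25 of 30 genes, called or not, so the shares describe the list and not the change with CWO. A match is again a description of the letters only. CCAAT was in 85.2% of their 27 windows, against 35.1% of the windows of tested genes and 33.8% of all windows, and TTTGAA in 40.7%, against 10.9% and 16%. Cdc20 (chr4:118437344-118437593), Cdk1 (chr10:69352913-69353162) and Ccnb2 (chr9:70421555-70421804), all on the minus strand of GRCm38.p6 and chosen after their matches were seen, hold both motifs, in capitals on either strand.
Cdc20: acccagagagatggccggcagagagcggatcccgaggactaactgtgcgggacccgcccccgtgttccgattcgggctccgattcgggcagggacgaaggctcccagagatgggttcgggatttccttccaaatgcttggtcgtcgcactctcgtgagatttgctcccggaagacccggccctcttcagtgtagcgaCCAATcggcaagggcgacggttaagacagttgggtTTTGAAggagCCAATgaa
Cdk1: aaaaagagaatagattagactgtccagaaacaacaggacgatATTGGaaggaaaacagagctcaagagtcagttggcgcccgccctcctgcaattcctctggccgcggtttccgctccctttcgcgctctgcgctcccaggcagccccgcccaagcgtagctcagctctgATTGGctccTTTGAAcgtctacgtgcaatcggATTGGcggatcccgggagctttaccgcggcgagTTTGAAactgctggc
Ccnb2: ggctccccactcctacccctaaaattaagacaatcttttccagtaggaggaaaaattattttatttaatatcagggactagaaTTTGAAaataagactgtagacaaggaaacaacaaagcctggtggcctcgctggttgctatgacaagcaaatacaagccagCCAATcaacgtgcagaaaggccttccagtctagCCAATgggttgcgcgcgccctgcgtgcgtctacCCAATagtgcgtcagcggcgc

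**Figure D3:**
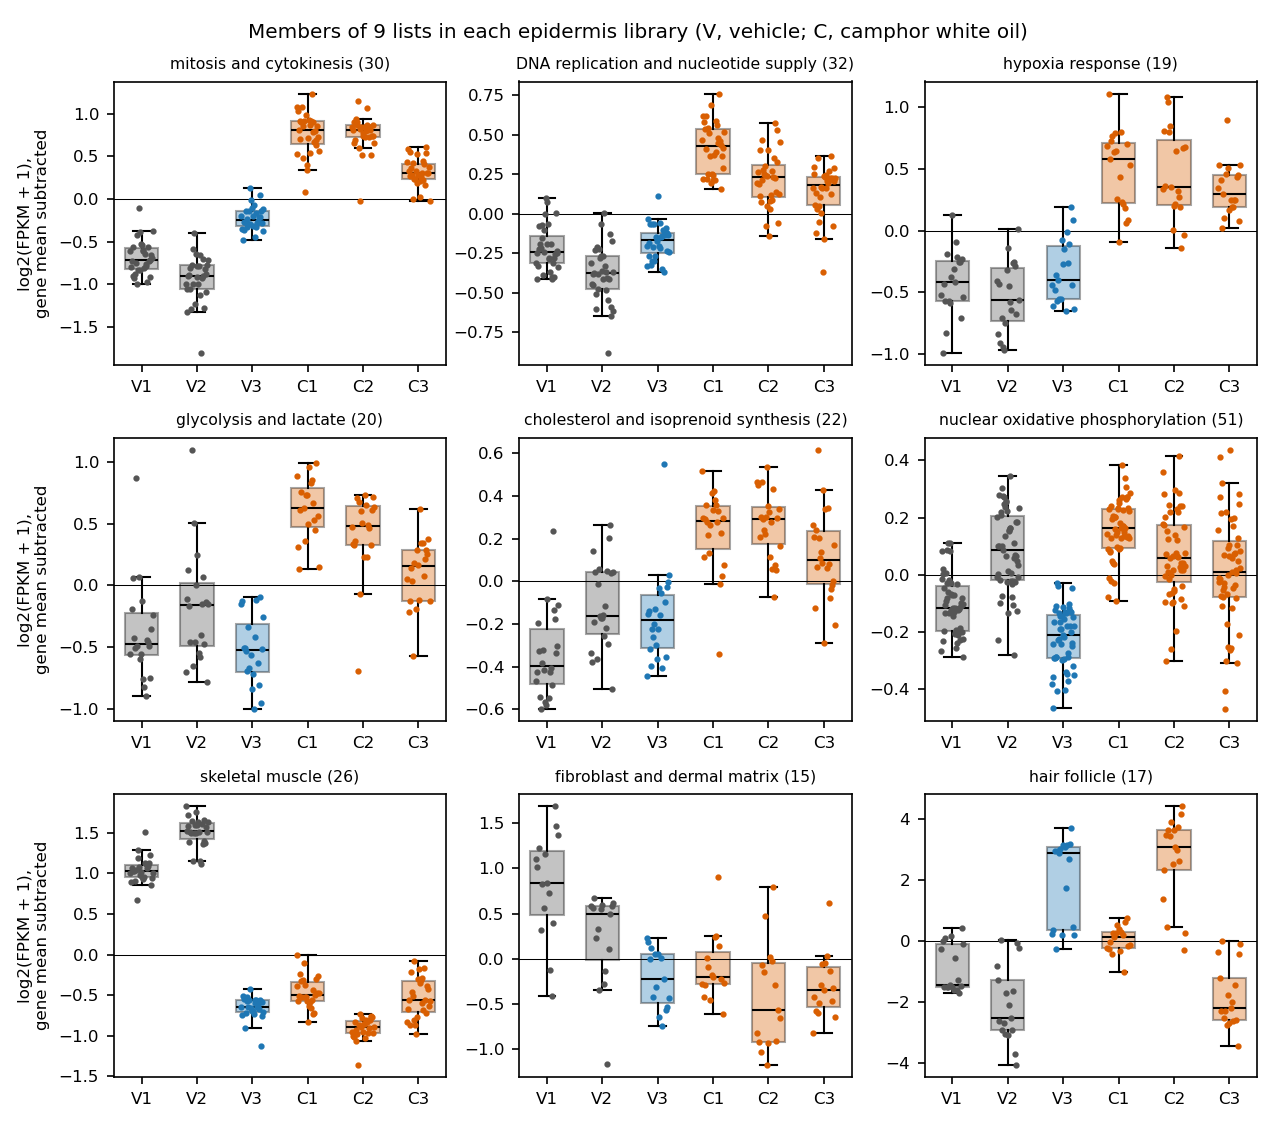
Each point is a tested member of the named list in the library on the horizontal axis (V1 to V3 vehicle, C1 to C3 CWO), as log2(FPKM + 1) minus that gene's mean over the 6 libraries; boxes show the median and quartiles and whiskers reach the last point within 1.5 box lengths. Mitosis members step up in the CWO libraries with vehicle library 3 the nearest vehicle library, muscle members are high in vehicle libraries 1 and 2, and hair follicle members are high in vehicle library 3 and CWO library 2.

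Iron genes moved in both directions. Tfrc, the transferrin receptor that brings iron into cells (mm9 chromosome 16, 32608982 to 32632880), read 17.0, 15.2 and 19.1 FPKM with vehicle and 38.3, 36.5 and 42.8 with CWO. That was a log2 fold change of 1.15 (SE 0.122, limma adjusted p = 0.00577), held with each library left out. Hamp2 (chromosome 7, 31707391 to 31709200), which encodes a hepcidin-like peptide, read 1497, 1208 and 1474 FPKM with vehicle and 138, 106 and 379 with CWO, and the call was lost without CWO library 1. CWO library 3 was the highest CWO library for Hamp2 and still far under every vehicle library. Its neighbour Hamp, hepcidin proper, read 39.8, 25.7 and 28.5 FPKM with vehicle and 2.14, 1.5 and 5.80 with CWO. Hamp and Hamp2 are close copies, so reads may have been split between them. Of 19 iron genes these 2 fell, Tfrc rose and 16 did not pass (15.8% called, beside 1.99% of all tested genes). The largest log2 fold change of the list, 2.63, was that of a gene that did not pass.

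Lipid synthesis showed rises on the sterol side and a split among fatty acid enzymes. Of 22 cholesterol and isoprenoid genes 5 rose and 17 did not pass (22.7%; median 0.47, and 0.38 against vehicle library 3). Acat2, a thiolase, read 47.2, 51.7 and 47.9 FPKM with vehicle and 94.3, 90.7 and 79.0 with CWO (log2 fold change 0.83, SE 0.108, limma adjusted p = 0.0093), and lost its call only without CWO library 1 among the single libraries. Idi1, Cyp51 and Pmvk, of other steps, rose by 0.79, 0.74 and 0.55. None of these 3 held without vehicle library 1, CWO library 1 or CWO library 2, and the list's calls numbered 1, 2 and 7 without vehicle libraries 1, 2 and 3 and 0, 1 and 6 without CWO libraries 1, 2 and 3.

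Elovl3, an elongase of very long fatty acids, read 38.2, 55.0 and 45.8 FPKM with vehicle and 187, 189 and 115 with CWO (adjusted p = 0.00751, log2 fold change 1.78 by limma), and held with each library left out. Scd3, a desaturase, went the other way, from 119, 114 and 137 FPKM to 31.3, 21.4 and 44.7 (log2 fold change -1.95, adjusted p = 0.00743), and held likewise. The other 20 of the 22 genes of fatty acid and sebocyte lipid synthesis did not pass (9.09% called, beside 1.99% of all tested genes). Of 22 barrier lipid genes Degs1 and Degs2, which finish ceramides, and the elongase Elovl7 rose by 0.70, 1.87 and 0.52. The other 19 did not pass (13.6% called higher, beside 1.81% of all tested genes). Elovl7 showed a small change between narrow groups, at 60.8, 62.0 and 59.6 FPKM with vehicle and 87.0, 86.8 and 88.6 with CWO. None of the 3 was called without vehicle library 1 or 2 or CWO library 1. Fads3, a desaturase outside the lists, read 8.30, 7.44 and 7.25 FPKM with vehicle and 26.5, 30.7 and 17.4 with CWO (log2 fold change 1.54).

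Retinoid handling genes rose in 4 of 19 cases (21.1%) and 15 did not pass. Fabp5, an abundant lipid carrier of keratinocytes, read 731, 796 and 729 FPKM with vehicle and 1230, 1315 and 1064 with CWO, a log2 fold change of only 0.67 (limma adjusted p = 0.0449) but a gain of 451 FPKM. Aldh1a3, which makes retinoic acid, and Dgat1, which esterifies retinol and fats, rose by 1.29 and 0.60. These 3 calls were lost without vehicle library 2 and without CWO library 1 or 2. Cd36, a fatty acid receptor, Abhd12b, Aadac and Adig, outside the lists and under 1 on the log2 scale, rose by 0.74, 0.99, 0.96 and 0.67, each losing its call without vehicle library 1 or 2 and without CWO library 1 or 2, in one or both cases.

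Structural genes of the outer layers gave calls mainly in 1 family. Of 39 tested genes of the cornified envelope and epidermal differentiation complex 8 rose and 31 did not pass (20.5%), with a list median of 0.23. The risers were 6 Sprr2 genes, Rptn (1.23) and Lce1g (1.14). Sprr2a2, a small proline-rich envelope precursor, read 13.8, 18.9 and 13.9 FPKM with vehicle and 205, 260 and 103 with CWO, and Sprr2f read 0.907, 1.59 and 2.05 with vehicle and 7.34, 13.5 and 9.43 with CWO. CWO library 2 was the highest and the groups did not overlap. Sprr2 genes are close copies, so their separate levels depend on how shared reads were assigned. The list's calls numbered 5, 6 and 13 without vehicle libraries 1, 2 and 3, and 4, 5 and 13 without CWO libraries 1, 2 and 3.

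None of the 17 keratins of interfollicular epidermis passed, with 0 called by limma and a list median of 0.12. Krt16, of disturbed epidermis, read 76.8, 93.7 and 150 FPKM with vehicle and 438, 606 and 194 with CWO (adjusted p = 0.0645, log2 fold change 1.85). Krt6b overlapped, with 35 in vehicle library 3 against 34.4 in CWO library 3 (adjusted p = 0.144). Ehf and Elf3, epithelial transcription factors of the Ets family, rose by 1.22 and 1.43 among 31 squamous regulators. The other 29 did not pass (6.45% called higher, beside 1.81% of all tested genes). Ehf read 4.81, 5.89 and 6.30 FPKM with vehicle and 14, 16.4 and 13.1 with CWO and held with each library left out, whereas Elf3 was not called without vehicle library 1 or 2 or CWO library 1 or 2.

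Protease inhibitors and proteases rose together in part. Of 24 stefins, serpins and Spink inhibitors 6 rose and 18 did not pass (25.0%). Stfa3, an inhibitor of cysteine cathepsins, read 25.1, 22 and 35.7 FPKM with vehicle and 255, 204 and 154 with CWO (log2 fold change 2.84, SE 0.22, limma adjusted p = 0.00211; 2.45 against vehicle library 3). Stfa1, BC100530 and BC117090, copies of the same cluster, rose by 3.04, 3.50 and 2.58, with vehicle library 3 the highest vehicle library in each and 2.21, 2.54 and 1.41 against it alone. Cstb, stefin B, which every cell uses, rose from 386 ± 17.5 to 626 ± 65.7 FPKM (SD, n = 3; log2 fold change 0.69), and Serpinb6c by 1.31. Cstb, Serpinb6c and BC117090 were not called without vehicle library 1 or 2 or CWO library 1 or 2. Of 23 serine proteases and cathepsins the kallikreins Klk6, Klk13 and Klk10, enzymes of shedding, rose by 1.83, 1.26 and 0.71, and 20 did not pass. Klk6 read 28.7, 30.2 and 35.6 FPKM with vehicle and 123, 145 and 83.5 with CWO and held with each library left out, while the other kallikrein calls were lost without vehicle library 1 or 2.

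Among called genes the largest gain in FPKM was that of an antimicrobial peptide. Defb6, a beta-defensin (mm9 chromosome 8, 19225478 to 19228209), read 815, 791 and 716 FPKM with vehicle and 2518, 2482 and 2202 with CWO (774 ± 51.4 and 2401 ± 173, SD, n = 3; log2 fold change 1.63, SE 0.133, limma adjusted p = 0.00261). Slpi, an inhibitor of leukocyte elastase, read 4.56, 9.40 and 5.71 FPKM with vehicle and 22.8, 32.6 and 24.3 with CWO (log2 fold change 1.90). S100a9, a subunit of calprotectin, and S100a4 rose by 1.84 and 0.60, both calls being lost without vehicle library 1 or any 1 of the CWO libraries. Of 22 genes of this kind 4 rose and 18 did not pass (18.2%).

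**Figure D4:**
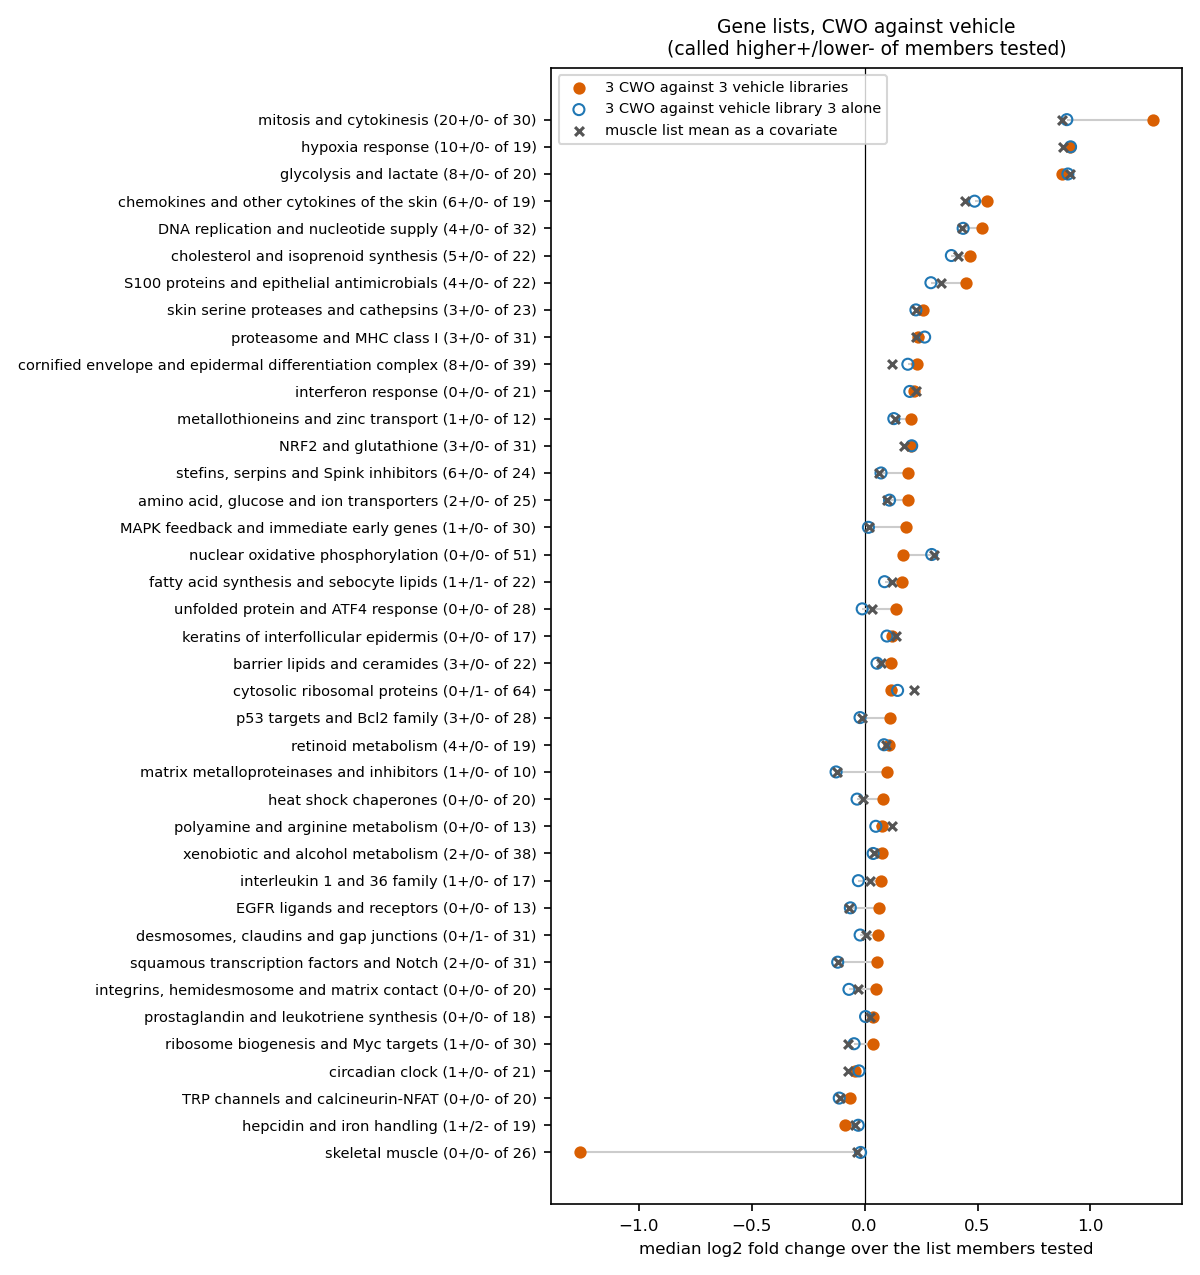
Median log2 fold change over the tested members of each list for all 3 vehicle libraries (filled), vehicle library 3 alone (open) and a covariate for the muscle list mean (cross), with called members of those tested in the row label. Mitosis, hypoxia and glycolysis lie at 0.87 to 1.28 with all libraries and at 0.87 to 0.91 under both allowances, and the skeletal muscle list goes from -1.26 to near 0.

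Cytokines rose in a few members. Of 19 chemokines and other skin cytokines 6 rose, Xcl1 among them, and 13 did not pass (31.6%; median 0.54). The largest was 2610528A11Rik, listed here among skin cytokines, at 2.52, 3.32 and 3.60 FPKM with vehicle and 71.2, 62.9 and 48.9 with CWO (log2 fold change 3.89, SE 0.169, limma adjusted p = 9.6e-05). Ccl17 and Ccl22, ligands of one receptor that draws T cells to skin, rose by 2.16 and 1.85 and held with each library left out. Ccl17 read 3.81, 2.69 and 3.10 FPKM with vehicle and 22.4, 17.9 and 13.7 with CWO. Ccl20, which draws cells bearing Ccr6, read 4.06, 1.71 and 4.71 FPKM with vehicle and 17.3, 23 and 13.9 with CWO (2.13; not called without CWO library 1), and Cxcl16 rose by 0.71. Of 17 interleukin 1 and 36 family genes only Il1f6, interleukin 36 alpha, rose (5.88%, beside 1.81% of all tested genes). It went from 4.95, 6.34 and 5.11 FPKM to 36.4, 41.6 and 25.3 (log2 fold change 2.43, limma adjusted p = 0.00211) and held under all 23 alternatives.

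Of 20 T and NK cell genes 4 rose and 16 did not pass (20.0%, beside 1.81% of all tested genes). Calls numbered 2, 3 and 4 without vehicle libraries 1, 2 and 3 and 2, 3 and 2 without CWO libraries 1, 2 and 3. With FPKM of at least 1 required in all 6 libraries there were 2. Gzmc, a granzyme, read 13.2, 8.90 and 8.36 FPKM with vehicle and 75.2, 49.1 and 34.3 with CWO (log2 fold change 2.23), Tnfrsf9, an activation receptor, rose by 1.45, Xcl1 by 1.63 and Gzmb by 0.96. Gzmb and Xcl1 were not called without vehicle library 1, CWO library 1 or CWO library 3. The summed FPKM of the tested T and NK genes was 415 to 498 in the vehicle libraries and 468 to 570 in the CWO libraries, while Cd4, Cd8a, Cd8b1 and Ifng lay below the filter and Gzmd and Gzme were at 0 in all 6. Of 17 Langerhans and dendritic cell genes Cd83 and Ccr7, of maturing cells, rose by 0.77 and 1.01 (11.8%), neither held without vehicle library 1 or 2, and the list's summed FPKM was 2342 to 2560 with vehicle and 2308 to 2812 with CWO. No macrophage gene of 15 was called by limma. Bcl2a1b, a survival gene of leukocytes and stressed epithelium, read 1.74, 1.38 and 1.82 FPKM with vehicle and 11, 10.6 and 7.5 with CWO (adjusted p = 0.00269, log2 fold change 2.00). Its copies Bcl2a1d and Bcl2a1a rose by 1.44 and 1.09 and may share reads with it. Of 28 p53 target and Bcl2 family genes 3 were called (10.7%), and 1 was with FPKM of at least 1 required in all 6 libraries. Psme2, Psme1 and Psmb9, of the immunoproteasome and its activator, rose by 0.68, 0.62 and 0.53 among 31 proteasome and MHC class I genes. That was 9.68% of the list, beside 1.81% of all tested genes, and none of the 3 held without vehicle library 1 or 2. No interferon response gene of 21 was called, Irf8 and Irf1 having 0.76 and 0.79 (adjusted p = 0.0621 and 0.0684).

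Genes that handle foreign chemicals and oxidants moved singly. Aox4, an aldehyde oxidase of the skin that also acts on retinal (mm9 chromosome 1, 58267241 to 58325440), read 6.18, 6.34 and 5.68 FPKM with vehicle and 31.7, 32.4 and 22.9 with CWO (log2 fold change 2.07, SE 0.152, limma adjusted p = 0.00211), and held under all 23 alternatives. It and Aldh1a3 were the only calls among 38 genes of xenobiotic and alcohol metabolism, 36 of which did not pass, a share of 5.26%. Of 31 NRF2 and glutathione genes Mgst2, Gpx2 and Txn1 rose by 1.14, 1.21 and 0.54. The other 28 did not pass (9.68% called higher, beside 1.81% of all tested genes). Mgst2, a glutathione transferase of membranes, read 10.5, 8.14 and 12.1 FPKM with vehicle and 22.8, 22.7 and 25.2 with CWO and held with each library left out. Gpx2, a glutathione peroxidase, stood at 0.551 ± 0.223 and 2.58 ± 0.429 FPKM (SD, n = 3) and was not called without any 1 of the CWO libraries. It passed the filter only through the CWO libraries. With FPKM of at least 1 required in all 6 libraries, 2 genes of this list were called.

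Of 25 transporter genes 2 rose, Atp12a and Clca2, and 23 did not pass (8.00%). Atp12a, a potassium-transporting proton pump, read 2.80, 3.15 and 3.28 FPKM with vehicle and 13.8, 18.8 and 10.8 with CWO (log2 fold change 1.90, limma adjusted p = 0.0045). Clca2, a calcium-activated chloride channel regulator, rose from 215 ± 34.5 to 434 ± 47.6 FPKM (SD, n = 3; 1.02, not called without CWO library 1), and Clca3 by 1.41. Genes of TRP channels and calcineurin signalling, a family that holds the channels known to open with camphor and menthol, had 0 calls by limma among 20 tested, and their log2 fold changes lay between -0.31 and 0.23. Trpm8 was listed at 0 in all 6 libraries and Trpa1 and Trpv1 lay below the filter.

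Outside the lists 130 genes were called, and those named here were taken by smallest p. Chi3l1, a chitinase-like protein of inflamed tissue, read 8.17, 9.69 and 10.6 FPKM with vehicle and 78.6, 71.9 and 41.3 with CWO (log2 fold change 2.59, limma adjusted p = 0.00296). St3gal5, which makes the ganglioside of skin, read 1.32, 1.84 and 0.465 FPKM with vehicle and 6.98, 6.49 and 8.06 with CWO, and its log2 fold change of 1.94 became 2.48 with the muscle covariate (adjusted p = 0.0046). Vehicle library 3 was its lowest library, against the order of the mitotic genes. Fam3b, a secreted cytokine-like protein, read 16 FPKM in each vehicle library and 34.4, 35.7 and 28 with CWO (0.98). Mansc1, Pdss1, Guca2a and Mill1 rose by 1.23, 1.88, 1.35 and 1.02. Adm2, a peptide of the calcitonin family, rose by 2.14 from levels under 1 FPKM in every vehicle library. It passed the filter only through the CWO libraries and was not called without any 1 of them. Among rises under 1 on the log2 scale, Tmem45b, Rarres1 and Echdc1 had 0.93, 0.78 and 0.83, and none of the 3 held without vehicle library 1.

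Genes called lower included regulators, enzymes and a junction protein. Nkd2, an inhibitor of Wnt signalling (mm9 chromosome 13, 73956776 to 73985079), read 10.1, 11.1 and 12.6 FPKM with vehicle and 4.00, 4.59 and 4.55 with CWO. Its log2 fold change was -1.19 (SE 0.131, limma adjusted p = 0.00669), and -1.32 with the muscle covariate (adjusted p = 0.0421), the only fall still called there. Carns1, carnosine synthase, read 64.2, 54.6 and 61.3 FPKM with vehicle and 16.3, 19.8 and 31.1 with CWO (adjusted p = 0.0159, log2 fold change -1.43). Vehicle library 3 lay between vehicle libraries 1 and 2, and the call was lost without vehicle library 1 or 2. The part of muscle RNA in its level was not tested.

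Cldn3, a tight junction claudin, fell in near-equal libraries, from 27.7, 31.5 and 28.6 FPKM to 16, 16.1 and 15.3 (log2 fold change -0.85, SE 0.104, adjusted p = 0.00784 by limma), and was the 1 call among 31 genes of desmosomes, claudins and gap junctions. Gng13, a G protein subunit of taste and nerve cells, and Cartpt, a neuropeptide, fell by 2.13 and 2.40 on the log2 scale, Gng13 being held with each library left out and Cartpt lost without vehicle library 1 or CWO library 1. Acox3, of peroxisomal fatty acid oxidation, fell from 157 ± 14.2 to 99.3 ± 13 FPKM (SD, n = 3; -0.66), the smallest fall. Rasl11a, Slc38a3, Gamt, Myl9, Pla2r1, Myh7b, Fam171b, Kcns1, Baiap2l2 and Ltbp4 had log2 fold changes between -1.25 and -0.70, and each was lost without CWO library 1 and at least 1 vehicle library.

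Some of the genes called lower are also expressed in other cell types. Col1a1 and Col1a2, collagens of fibroblasts, had -1.28 and -1.18, and -0.87 and -0.78 against vehicle library 3. Gamt, of creatine synthesis, read 21.5, 21.3 and 12.9 FPKM with vehicle and 8.21, 5.33 and 7.88 with CWO, with vehicle library 3 the lowest of its group. Myl9 of smooth muscle and Myh7b, a myosin, had -0.95 and -0.87, and -0.82 and -0.998 against vehicle library 3. The 15 tested fibroblast genes summed to 330, 257 and 232 FPKM with vehicle and 306, 252 and 261 with CWO, Postn, a matrix protein, rising by 1.55 while 12 did not pass. Their median log2 fold change was -0.93, with 3 of 15 positive, and -0.08 against vehicle library 3. Both collagen calls were lost with any 1 library left out except vehicle library 3, without which 7 fibroblast genes were called lower. The part of fibroblast or muscle RNA in these falls was not tested. Rpl34 was called at -3.06, but its pseudogene Rpl34-ps1, annotated at the same place and named after its values were seen, went from 0.00964, 0.0678 and 26.7 FPKM to 179, 185 and 186, so the call cannot be told apart from a change in read assignment.

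**Figure D5:**
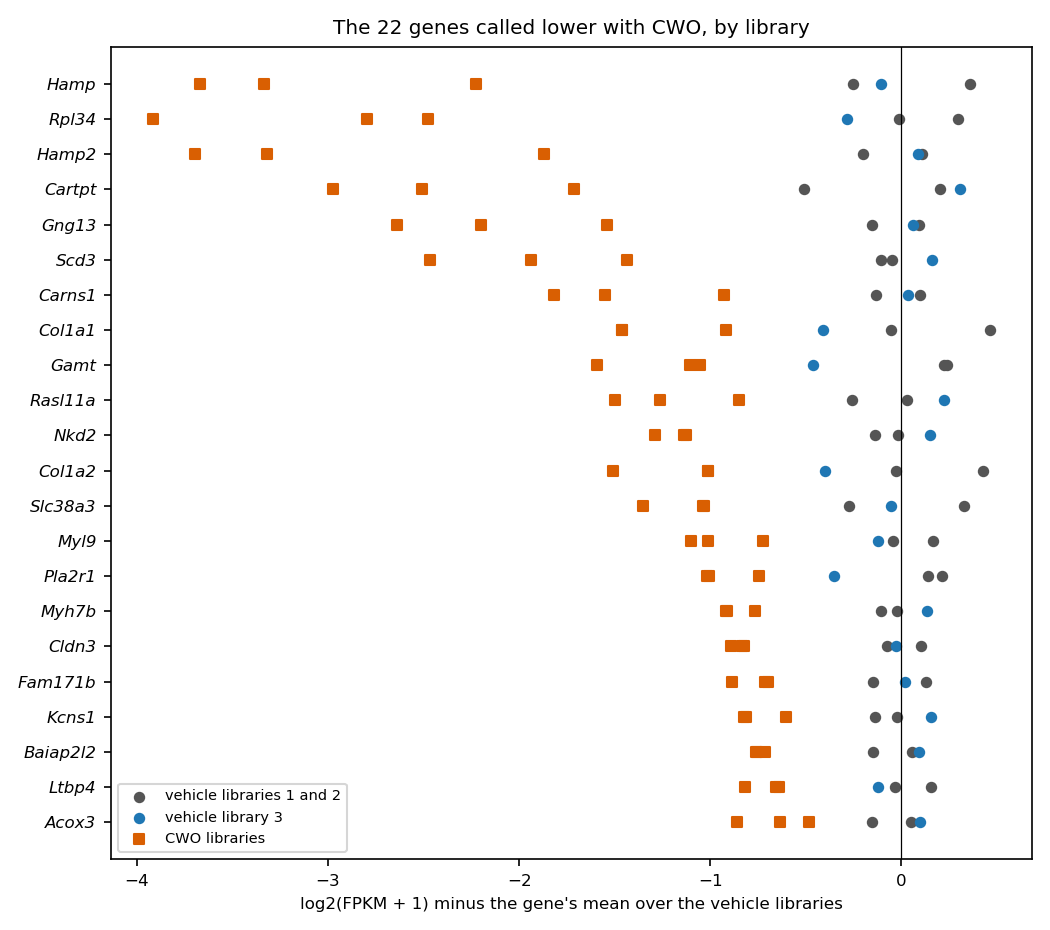
The 22 genes called lower, each library as log2(FPKM + 1) minus the gene's mean over the vehicle libraries, with vehicle libraries 1 and 2 in grey, vehicle library 3 in blue and CWO libraries as orange squares. Every CWO library lies left of every vehicle library, and vehicle library 3 is the lowest vehicle library for Rpl34, Myl9, Ltbp4, Gamt, Col1a1, Col1a2 and Pla2r1.

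Other lists gave 1 call each or none, beside 1.99% called over all tested genes. Of 30 MAPK feedback and immediate early genes only Ier3 rose (0.63, limma adjusted p = 0.0255), of 21 clock genes only Bhlhe40 (1.01, adjusted p = 0.0126), which hypoxia also induces, and of 10 tested matrix metalloproteinases and inhibitors only Mmp12 (1.03, adjusted p = 0.018). Ier3 and Bhlhe40 were lost without vehicle library 1 or 2, and Mmp12 without any 1 of 5 libraries. Mmp12 was also not called with FPKM of at least 1 required in all 6 libraries. Slc39a6, a zinc carrier, was the only call of 12 metallothionein and zinc genes. No gene was called among 13 EGFR ligands and receptors, 28 genes of the unfolded protein and ATF4 responses, 20 heat shock chaperones, 20 integrin and hemidesmosome genes, 13 polyamine genes and 18 prostaglandin genes. In those lists the smallest adjusted p of a member was 0.0523 for Psat1, of serine synthesis (0.62). Epgn and Hbegf, EGFR ligands, had 1.39 and 1.10 (adjusted p = 0.0805 and 0.131), with CWO library 2 at 15.0 FPKM in both and the other CWO libraries between 6.06 and 6.79.

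None of 51 nuclear genes of oxidative phosphorylation was called, and the list median of 0.17 became 0.30 against vehicle library 3 and 0.31 with the covariate. Vehicle library 3 lay below every CWO library in 40 of the 51, beside 19.5% of all tested genes. Every CWO library lay above every vehicle library in only 11 of the 51, beside 12.1% of all tested genes. On the log2 scale the list mean was 7.66 in vehicle library 2, above CWO libraries 2 (7.64) and 3 (7.58). Ndufa4 read 874, 876 and 743 FPKM with vehicle and 1205, 1249 and 1368 with CWO (log2 fold change 0.62, limma adjusted p = 0.0621; 0.78 against vehicle library 3). Atp5g3 had 0.43 and 0.54. Cytosolic ribosomal proteins, 64 genes, had a median of 0.12 and no call but Rpl34, and of 30 ribosome biogenesis and Myc target genes Tfrc alone was called.

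Markers checked the label. The 11 tested keratinocyte markers gave 5.77% to 6.60% of the summed FPKM in every library, and none was called, Krt14 having 0.63 (limma adjusted p = 0.174) and Krt15 -0.61 (0.209). The 17 tested hair follicle genes summed to 62.3, 25.8 and 1049 FPKM in vehicle libraries 1 to 3 and 160, 1705 and 31.2 in CWO libraries 1 to 3, high in 1 library of each treatment, with 0 called. The 10 tested adipocyte genes summed to 817, 504 and 189 FPKM with vehicle and 401, 353 and 298 with CWO, and the 4 tested red blood cell genes to 460, 358 and 215 and to 276, 666 and 417. Vehicle library 3 was thus lowest of its group in muscle, fat and blood genes and highest in hair genes. No marker was called among the 2 tested of 12 mast cell, 8 of 15 endothelial, 5 of 8 melanocyte and 4 of 10 nerve genes. The rest of these markers lay below the filter.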

How the data were processed

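PolyA RNA of 6 epidermis libraries was sequenced. The authors deposited FPKM per gene, made with bcl2fastq 1.8.4, TopHat2 2.0.4 and Cufflinks 2.0.2 per the submitters' processing notes, which also name DESeq and mm9. The authors' deposited table gives log2 and ratio (fold) values with p-values for its own comparison. Its signal columns, the authors' mean normalized counts, were not used. Fragments were recovered from the deposited FPKM confidence limits, and 68.2% to 69.4% of those checked were whole within 0.02. A value whose status was not OK counted as missing, rows of 1 symbol were summed (248 of 23235 symbols), and short non-coding RNAs were dropped. Genes with FPKM of at least 1 in at least 3 libraries and 2 values per group were tested with limma 3.58.1 (R 4.3.3, trend) on log2(FPKM + 1), two-sided, with Benjamini-Hochberg adjustment over all tested genes at 0.05. A gene could pass this filter through 1 group alone. With FPKM of at least 1 required in all 6 libraries, 265 genes were called. The code was tested on simulated data. Groups follow the titles, and 23 alternatives were run.

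The members and the 52 gene lists were chosen with earlier results of these data known. Genes were named by rule: the 4 called members of smallest p in each direction of a list (the 2 of smallest p where none was called), every gene called lower, outside the lists the 15 of smallest p called higher that held without vehicle library 1 and without vehicle library 2 and the 10 of smallest p with a rise under 1, the 10 called with the largest FPKM difference, and the 4 most abundant muscle genes. Unnamed gene models outside the lists were skipped. This was joined by genes chosen after their values were seen: Bnip3, Ankrd37, Car9, P4ha2, Egln1, Pdk1, Pfkp, Pfkl, Slc16a1, Slc16a3, Cdc20, Cdk1, Ccnb2, Mki67, Top2a, Cenpa, Rptn, Lce1g, Cxcl16, Serpinb6c, BC117090, Rpl34-ps1, Foxm1, Ldha, Vegfa and Ube2c. Cell type lists other than muscle are given by range, and their members that did not pass were not carried through the alternatives. Some called genes are counted in their lists but not reported here.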

Additional observations from a re-analysis of the deposited data

How the results depend on the processing

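The 245 calls became 44 (41 higher) with no filter on low values, 141 (123 higher) rescaled to an equal sum outside the muscle list, 16 with a covariate for muscle RNA and 12 without vehicle libraries 1 and 2. They became 1296 with limma arrayWeights, of which 70.7% were higher against 91.0%, and 653 with all 12 libraries in 1 fit. With 1 library left out the count ran from 64 (without CWO library 1) to 684 (without vehicle library 3, 54.2% higher). A replicate block gave 54 calls (45 higher). After the group mean was subtracted, same-numbered libraries correlated at 0.03, -0.44 and -0.36, and differently numbered ones at -0.16 to 0.44. With 3 libraries a group these values cannot settle whether the numbers pair the samples. The other alternatives stayed within 1.5 times of the count. The log2 fold change of Tnnc2 changed sign with the covariate (0.053) and without vehicle libraries 1 and 2 (0.072), and that of Tnni2 likewise (0.11 and 0.11); neither was called. The cause of these shifts was not tested beyond fewer samples or genes. No setting moved the median of all genes by over 0.1. With 3 libraries a group, small changes in genes near 1 FPKM may have been missed, and their detection was not tested.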
